A study of Mus musculus with 2 samples.

Results

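Matrix metalloproteinases (MMPs) and their tissue inhibitors (TIMPs) were examined in control and senescent AML12 cells by RNAseq. The set holds 10 genes of the 35275 in the deposited count table, namely 7 MMPs (Mmp2, Mmp3, Mmp9, Mmp10, Mmp13, Mmp14 and Mmp15) and 3 TIMPs (Timp1, Timp2 and Timp3), found by matching Ensembl identifiers to GENCODE M21 symbols. AML12 is an established, non-transformed hepatocyte line from a CD-1 mouse that carries a transgene for human TGFα. The labels give the donor as male and 3 months old for both groups. Control cells were untreated. Senescent cells were given hydrogen peroxide in serum-free medium on 6 days for 1 h each, followed by 23 h without it in complete medium. The first dose was 1 mM and the later ones 0.75 mM. The complete medium of both groups held serum, insulin, transferrin, selenium and dexamethasone. RNA of 3 samples was pooled into 1 library for each condition, so there were 2 libraries and no replicates. A ratio therefore describes this pair of libraries rather than the conditions, and no p-value was computed.

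MMPs are zinc-dependent proteinases that are made as inactive proenzymes and cleave collagens and other matrix proteins once activated outside the cell or at its surface. TIMPs bind the active site of MMPs and block it, and Timp2 also takes part in the activation of pro-Mmp2 by the membrane-bound Mmp14. In the liver, MMPs and TIMPs are known for the turnover of scar matrix, and several MMPs are counted among the secreted factors of senescent cells.

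The control library held 28021941 reads and the senescent library 25738075. A gene was called higher or lower when its reads summed to 10 or more, its log2 ratio (senescent over control) lay past 1.5 and the 95% counting interval left out 0. Of 14383 genes with at least 10 reads, 2.71% were called higher and 5.60% lower, 8.31% in all. Intervals cover counting error only, because each condition has 1 library. The reads carry no molecular identifiers and may repeat a molecule, so the intervals may be too narrow even for counting error. The floor was taken as 3 reads, which equal 0.103 CPM (TMM-scaled counts for a library of 1000000) for control and 0.121 for senescent cells. Of the hepatocyte markers, 7 of 7 had at least 10 reads, with Krt8 at 119403 and 144783 reads in control and senescent cells and Hnf4a at 8187 and 7705, while Alb, at 32076 and 2917 reads, and Apoa1, at 2026 and 197, were called lower and Ttr, at 23146 and 10486, was not called. Of 5 biliary markers, Krt19, at 22885 and 19177 reads, and Spp1, at 25430 and 10580, were also high. Krt7 had 3248 and 1026 reads, Sox9 3602 and 4454, and Epcam only 0 and 1. Of 6 macrophage genes, Adgre1 and Clec4f had 0 reads in both libraries, Lyz2 had 1 and 0, and Cd68 had 34 and 40. Ptprc, with 27 and 76 reads, and Csf1r, with 15 and 40, were called higher. Of 8 stellate cell and fibroblast genes, Acta2, Thy1 and Col1a2 had 0 reads in both, Reln, with 0 and 12 reads, was called higher and Col1a1, with 21 and 1, lower. Reln reached 10 reads only through the senescent library and Col1a1 only through the control library, so these calls say little. In these bulk libraries, fewer cells that make a transcript and less of it per cell cannot be told apart.

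The 5′ regions of the 3 secreted MMPs of chromosome 9 in the set, Mmp13, Mmp10 and Mmp3, are shown first, beside that of Mmp14. They were chosen because their read counts differed although the first 3 share motif letters. Each line gives 250 bases upstream of the RefSeq transcription start, 5′ to 3′ on the plus strand of GRCm38.p6. Capitals mark the letters TGANTCA, a site for the transcription factor AP-1, and TATAAA, the letters of a TATA box.
Mmp13, chr9:7272264-7272513: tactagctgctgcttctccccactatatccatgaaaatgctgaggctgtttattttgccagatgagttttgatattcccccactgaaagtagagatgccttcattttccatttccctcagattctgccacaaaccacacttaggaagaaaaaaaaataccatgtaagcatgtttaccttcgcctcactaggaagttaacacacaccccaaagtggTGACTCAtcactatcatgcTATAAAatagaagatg
Mmp10, chr9:7502092-7502341: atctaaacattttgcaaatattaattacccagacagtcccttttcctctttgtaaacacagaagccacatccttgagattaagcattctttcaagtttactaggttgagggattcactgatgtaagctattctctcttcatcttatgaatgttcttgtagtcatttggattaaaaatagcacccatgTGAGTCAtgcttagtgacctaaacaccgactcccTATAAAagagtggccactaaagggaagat
Mmp3, chr9:7445572-7445821: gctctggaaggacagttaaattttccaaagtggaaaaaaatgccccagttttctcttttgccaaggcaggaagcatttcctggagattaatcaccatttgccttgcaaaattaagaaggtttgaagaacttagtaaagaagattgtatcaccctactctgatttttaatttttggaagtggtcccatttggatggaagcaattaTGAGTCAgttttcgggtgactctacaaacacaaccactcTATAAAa
Mmp14, chr14:54431348-54431597: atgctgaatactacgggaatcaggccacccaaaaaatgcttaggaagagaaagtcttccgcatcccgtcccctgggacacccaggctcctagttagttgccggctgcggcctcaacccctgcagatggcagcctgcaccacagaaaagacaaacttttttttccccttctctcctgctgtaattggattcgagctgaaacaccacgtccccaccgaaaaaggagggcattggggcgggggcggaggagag

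The AP-1 letters begin at position -35 from the start in Mmp13 (TGACTCA), at -63 in Mmp10 (TGAGTCA) and at -46 in Mmp3 (TGAGTCA). Windows of 250 bases before to 50 after the start were found for 8 of the 10 genes, and 3 of them held the AP-1 letters, against 7.81% of 32851 mouse windows. TGANTCA reads the same on both strands. TATAAA, searched on both strands, was in 3 of the 8 windows, those of the same genes, and in 13.6% of all windows. Its position differed, at -16 in Mmp13, -29 in Mmp10 and -7 in Mmp3. Mmp13 alone of the 8 held AACCACA, a RUNX site, at -119, and this motif was in 5.27% of all windows. The ETS motif AGGAAG was in 5 of the 8 windows and in 35.4% of all. The windows of Mmp2 and Mmp9 were not used here. These matches describe letters and not bound sites.

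Mmp13, the collagenase of the set (ENSMUSG00000050578, chromosome 9 from 7272514 to 7283331 in GRCm38), was called higher. It had 135 control reads against 981 in senescent cells. Its level went from 4.64 to 39.6 TMM-scaled CPM, a log2 ratio of 3.08 (95% interval 2.83 to 3.36). Per length, this was 5.69 TPM (transcripts scaled by length to a total of 1000000) in control and 46.5 TPM in senescent cells. The ratio ranked 60 from the highest among 14383 genes, above 99.6% of them.

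The stromelysins Mmp3 and Mmp10 cleave proteoglycans, laminin and fibronectin and can activate procollagenases. Mmp10 (ENSMUSG00000047562, chromosome 9 from 7502352 to 7510240) had 0 control reads against 12 in senescent cells, at least 4.69-fold higher with the control set to the floor of 3 reads. The lower end of its 95% counting interval was 1.70 on the log2 scale, so counting error alone allows a smaller fold than this bound. Mmp10 passed the minimum of 10 reads only through the library in which it was higher, and 12 reads correspond to 0.882 TPM. Mmp3 (ENSMUSG00000043613, chromosome 9 from 7445822 to 7455975) had 0 reads in both libraries. No fold was computed for Mmp3, and a level under the floor could not be seen at this depth.

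The gelatinases Mmp2 and Mmp9 degrade denatured collagen and basement membrane collagen IV. Mmp2 (ENSMUSG00000031740, chromosome 8 from 92827291 to 92853420) had 0 reads in both libraries. Mmp9 (ENSMUSG00000017737, chromosome 2 from 164940780 to 164955850) had 1 control read and 0 senescent reads. Both gelatinases were thus at the floor, which equals 0.103 CPM in control and 0.121 CPM in senescent cells. This floor is a chosen value and not an upper limit computed from the counts.

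Mmp14, or MT1-MMP, is anchored in the plasma membrane, cleaves collagen I and activates pro-Mmp2. It (ENSMUSG00000000957, chromosome 14 from 54431612 to 54445364) had 7160 control reads against 5672 in senescent cells, the most of any MMP in either library. Its log2 ratio was -0.11 (-0.16 to -0.06). Mmp14 was not called, and its ratio lay above those of 44.1% of the genes with at least 10 reads. Mmp15, or MT2-MMP (ENSMUSG00000031790, chromosome 8 from 95352268 to 95375080), gave 193 control against 329 senescent reads, or 1.00 on the log2 scale (0.74 to 1.26). This was higher than 94.1% of genes, short of the threshold of 1.5.

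Timp1, which is inducible and inhibits most soluble MMPs (ENSMUSG00000001131, chromosome X from 20870166 to 20874735), gave 1242 control reads against 1279 in senescent cells, or 0.27 on the log2 scale (0.16 to 0.39). Timp2 (ENSMUSG00000017466, chromosome 11 from 118301069 to 118355740) gave 8261 and 9839 reads, or 0.48 on the log2 scale (0.44 to 0.52). Neither TIMP was called. Timp3, which binds to the matrix and also inhibits ADAM17 (ENSMUSG00000020044, chromosome 10 from 86300372 to 86349506), had 1 read in each library. Timp3 shares 1733 bases of exon with Syn3 on the opposite strand, and Syn3 had 44 control and 24 senescent reads. Since the use of strand in counting is not given in the sources used here, reads from this stretch cannot be assigned. Timp1 lies inside Syn1 on the opposite strand with no shared exon base, and Syn1 had 1 and 3 reads.

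Of the 10 genes, 6 had at least 10 reads over both libraries, and 2 of the 6, Mmp13 and Mmp10, were called higher, beside 2.71% of all genes. Mmp10, without control reads, passed the minimum only through the senescent library, so its call was fixed once it passed. Its call therefore adds nothing to the comparison with that share. None of the 6 was called lower, beside 5.60% of all genes. The other 4 also stayed within a threshold of 1, which 5.09% of all genes passed upward and 9.98% downward. With total-count scaling the median over all genes shifted by -0.11 and the log2 ratio of Mmp14 was -0.21, and no ratio of the 6 genes changed sign under any scaling tried. The plot of levels shows the wide range of the set, from Timp2 at 239 and 320 TPM down to the genes without reads.

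**Figure D1:**
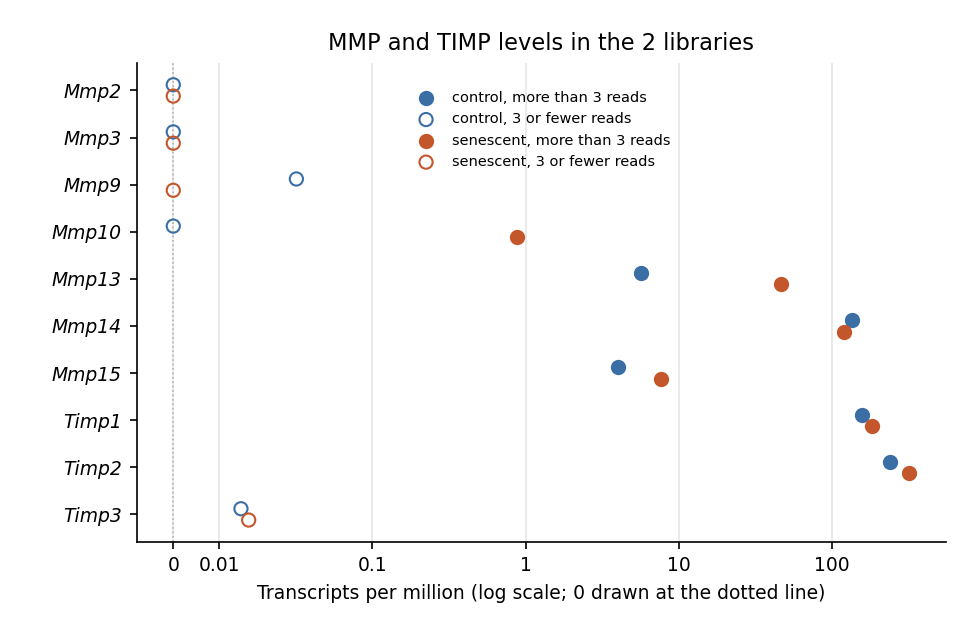
Level of each of the 10 genes in TPM (log axis, 0 drawn at a dotted line) in the control (blue) and senescent (orange) library, with open points for 3 or fewer reads. Mmp13 moves from 5.69 to 46.5 TPM and Mmp10 from 0 to 0.882, while Mmp14, Timp1 and Timp2 lie close together in the 2 libraries at over 100 TPM.

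**Figure D2:**
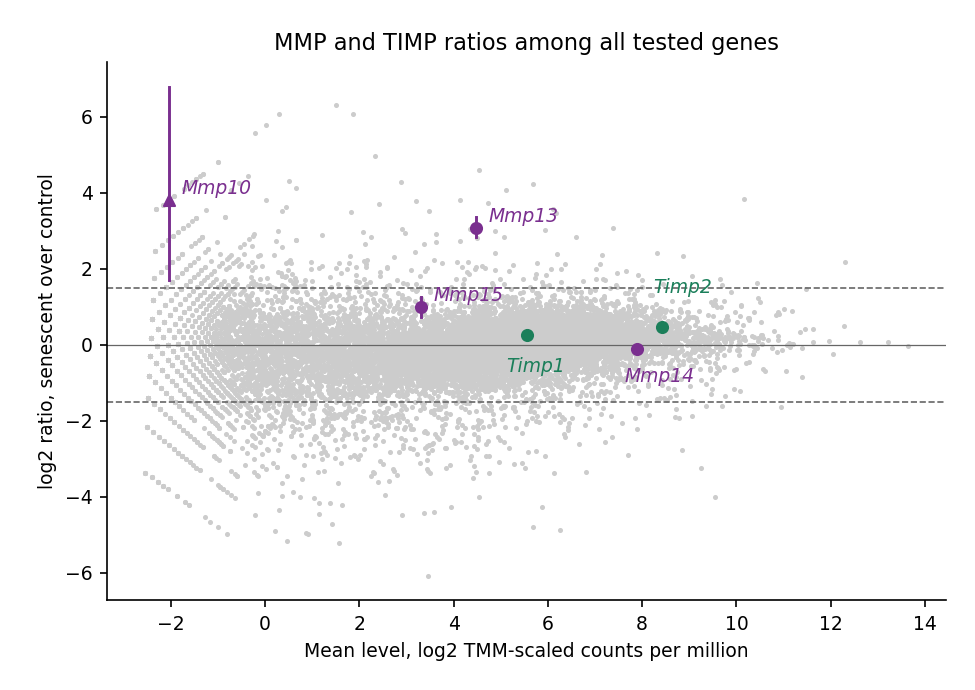
The log2 ratio of senescent over control against mean log2 CPM for 14383 genes (grey) and the 6 genes of the set with at least 10 reads (MMPs purple, TIMPs green), with vertical lines for 95% counting intervals, dashed lines at a log2 ratio of 1.5 in either direction and a triangle for a gene without control reads, whose interval has no upper end. Mmp13 at 3.08 and Mmp10 lie above the upper dashed line and Mmp15 at 1.00 below it.

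Levels between genes were compared per length. With the union of exons as length, the order in both libraries was Timp2, Timp1, Mmp14, Mmp13 and Mmp15. Timp1 was at 158 TPM in the control and 182 TPM in the senescent library, Mmp14 at 135 and 120 TPM, and Mmp15 at 4.03 and 7.72 TPM. This order depends on the length used. With the longest transcript in place of the union of exons, Mmp14 came to 188 TPM, above Timp1 at 120 TPM and close to Timp2 at 190 TPM in the control. In the senescent library Mmp14 was at 167 TPM, Timp1 at 138 and Timp2 at 253 TPM by this length. There is no spread over samples against which neighbours in this order could be compared.

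Read ratios between pairs of genes within each library do not depend on scaling between libraries. Mmp13 had 0.0189 reads for each Mmp14 read in control cells and 0.173 in senescent cells, a 9.17-fold higher ratio (95% counting interval 7.64 to 11.02). The Mmp13 to Timp1 read ratio went from 0.109 to 0.767, which is 7.06-fold (5.80 to 8.59), and the Mmp13 to Timp2 ratio was 6.10-fold higher (5.08 to 7.32). In contrast, the ratio of Mmp14 to its partner Timp2 was 0.867 in control and 0.576 in senescent cells, 0.665 times as high (0.636 to 0.696). Mmp14 to Timp1 was 0.769 times as high (0.706 to 0.838). Mmp15 had the higher ratio in senescent cells against both inhibitors, at 1.66-fold (1.36 to 2.01) against Timp1 and 1.43-fold (1.20 to 1.71) against Timp2. Relative to both TIMPs, reads of the collagenase Mmp13 were thus more frequent in senescent cells and those of the membrane-bound Mmp14 less frequent.

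**Figure D3:**
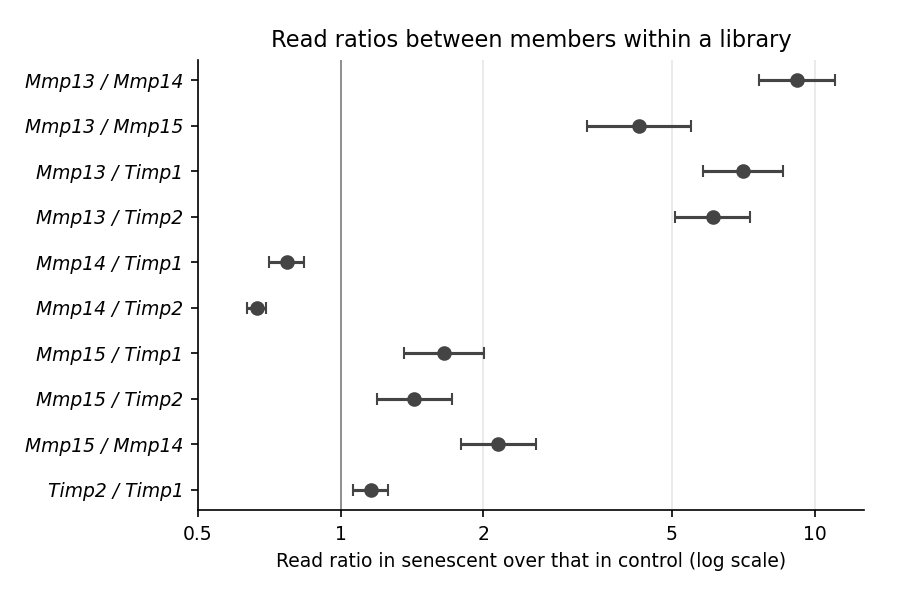
Read ratio of each pair of genes in the senescent library divided by the same ratio in the control (log axis), with bars for 95% counting intervals. The 4 pairs with Mmp13 first lie at 4.26 or more, and both pairs of Mmp14 over a TIMP lie below 1, at 0.769 and 0.665.

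Among reads on the 7 MMPs, Mmp14 took 95.6% of 7489 control reads (Clopper-Pearson 95% interval 95.1% to 96.1%) and 81.1% of 6994 senescent reads (80.2% to 82.0%). The share of Mmp13 went from 1.80% (1.51% to 2.13%) to 14.03% (13.2% to 14.9%). Summed over genes, the MMPs were at 145 TPM in control and 176 TPM in senescent cells, a log2 ratio of 0.27 (0.23 to 0.32). TIMPs summed to 397 and 502 TPM, a log2 ratio of 0.34 (0.29 to 0.39). The TIMP sum was therefore 2.73 times the MMP sum in control and 2.86 times in senescent cells. With longest transcripts as lengths these values were 1.58 and 1.87. TPM are scaled to the total of each library and not by TMM. The log2 ratios of the sums are therefore not on the same scale as the ratios of single genes.

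Mmp13, Mmp10 and Mmp3 belong to a cluster of 10 MMP genes that spans 427 kb of chromosome 9, from 7272514 to 7699585. The cluster had 139 control reads against 998 in senescent cells, and Mmp13, at its end, took 135 and 981 of them. Of the other 9 genes, Mmp10 had 12 senescent reads, Mmp7, or matrilysin, had 4 and 2 reads, Mmp12, the macrophage elastase, had 0 and 2, and the neutrophil collagenase Mmp8 had 0 and 1. Mmp1a, Mmp1b, Mmp3, Mmp20 and Mmp27 had 0 reads in both. Of these 10 genes, 8 held the AP-1 letters in a promoter window, and none of the 12 other MMP and TIMP genes with a window did. Most genes with these letters, such as Mmp3, thus had no or few reads. The flanking gene Dcun1d5 gave 2339 and 1947 reads, or -0.04 on the log2 scale (-0.12 to 0.05), and Tmem123, on the other side, had 3632 and 2215 (-0.48, interval -0.56 to -0.41).

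**Figure D4:**
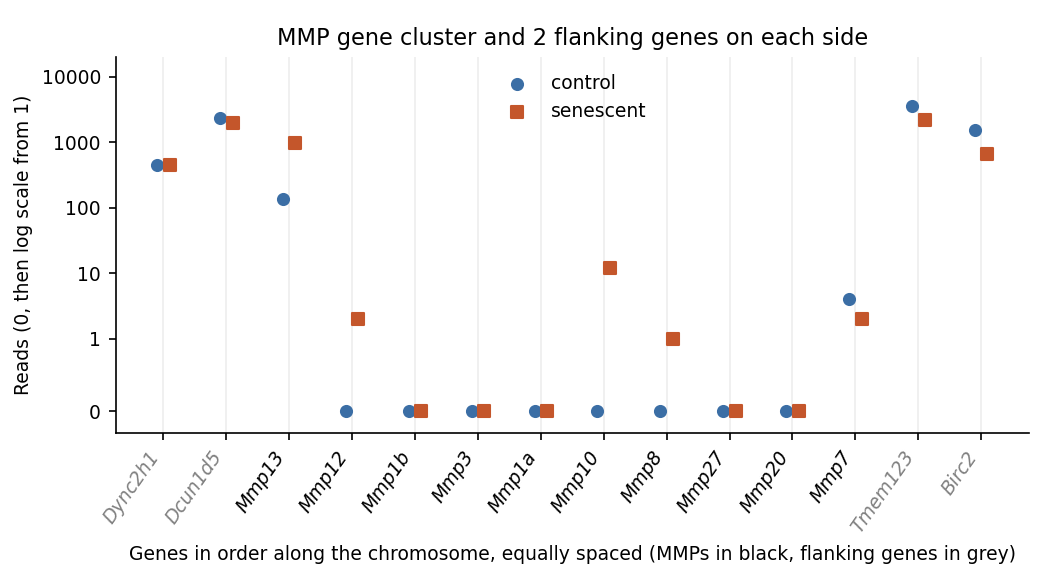
Reads of the 10 MMP genes of the chromosome 9 cluster and of 2 flanking genes on each side, in genomic order, in the control (blue circles) and senescent (orange squares) library, on an axis that is logarithmic from 1. Mmp13 at 135 and 981 reads stands above the other MMPs of the cluster, which have at most 12 reads.

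The mouse family holds further MMPs, and 16 of them were listed beside the set, of which 7 had at least 10 reads. Mmp25, a leukocyte MMP held by a lipid anchor, had 0 control and 13 senescent reads, at least 5.08-fold higher by the same floor, with an interval from 1.84 on the log2 scale upward. Like Mmp10, Mmp25 passed the minimum of 10 reads only through the senescent library, and counting error alone allows a smaller fold than its bound. Mmp19, which acts on basement membrane, was called lower, with 339 control against 94 senescent reads, or -1.61 on the log2 scale (-1.97 to -1.29). Mmp19 shares 789 bases of exon with Tmem198b on the opposite strand, which had 456 and 304 reads. The median of the 7 was -0.29, against -0.02 for all genes. Mmp28 had the most reads of these genes, 1248 and 1273 (0.26, interval 0.14 to 0.37), followed, by the sum of both libraries, by Mmp11, or stromelysin-3, with 262 and 183 (-0.29, interval -0.57 to -0.01). In the control library alone, Mmp19 and Mmp24 had more reads than Mmp11. Mmp11 shares 155 exon bases with Chchd10 on the opposite strand, which had 233 and 160 reads. Mmp28 shares 466 exon bases with 1700020L24Rik, which had 73 and 47 reads. Mmp24, a membrane-type MMP with 299 and 99 reads, was at -1.36 (-1.71 to -1.03). Mmp24 shares 637 exon bases with BC029722, which had 2802 and 2435 reads. Timp4 had 0 reads in both libraries. Over all 23 MMP genes, 11 had at least 10 reads, 3 were called higher and 1 lower, beside 2.71% and 5.60% of all genes, and Mmp10 and Mmp25 among the 3 had 0 control reads.

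Some leukocyte markers had more reads in the senescent library, at low counts, beside the leukocyte enzyme Mmp25. Ptprc went from 27 to 76 reads and Csf1r from 15 to 40. Of the 6 macrophage-list genes, 3 had at least 10 reads, and Ptprc and Csf1r were called higher, beside 2.71% of all genes. The summed level of the macrophage list was 3.59 TPM in control and 5.43 TPM in senescent cells, with Adgre1 and Clec4f at 0 in both. Most of these sums came from Cd68, at 3.05 and 4.03 TPM, which was not called. The neutrophil list of 5 genes summed to 0.757 and 4.13 TPM, from S100a8, which was called higher with 2 and 12 reads, and S100a9, with 2 and 8, while Ly6g, Elane and Mpo were at 0 in both. S100a8 was 1 of 2 genes of this list with at least 10 reads, beside 2.71% of all genes called higher. It passed that minimum only through the senescent library, so its call says little. The endothelial list of 5 genes summed to 0.0852 and 0.254 TPM, and the stellate cell and fibroblast list of 8 genes to 0.541 and 0.187 TPM. Whether any such cells were present in the cultures, or had a part in the values of Mmp10, Mmp13 and Mmp25, was not tested.

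ADAMTS proteinases are secreted relatives of the MMPs, several of which cleave proteoglycans such as aggrecan and versican. Of 19 listed genes, 8 had at least 10 reads, 4 were called lower and 0 higher, beside 5.60% and 2.71% of all genes. Their median log2 ratio was -1.64, against -0.02 for all genes. Adamts1 gave 4108 control reads against 736 in senescent cells, or -2.25 on the log2 scale (-2.37 to -2.14). Adamts9 had 2739 and 335 reads (-2.80, interval -2.97 to -2.64). Adamts15 went from 818 to 116 reads (-2.58, interval -2.88 to -2.31) and Adamts7 from 151 to 27 (-2.22, interval -2.90 to -1.66). Adamts7 shares 122 exon bases with Tbc1d2b on the opposite strand, which had 974 and 533 reads. The calls in this list were all downward. Those in the MMP and TIMP set, Mmp13 and Mmp10, were upward, but the call of Mmp10 followed from the read minimum. Among the MMPs outside the set, Mmp19 was called lower and Mmp25 higher. Of the 9 membrane-bound ADAM proteinases, 6 had at least 10 reads, with a median log2 ratio of 0.21, and none was called. Adam9 had the most reads, 6939 and 9098 (0.62, interval 0.58 to 0.67), and Adam10 had 6317 and 4752 (-0.18, interval -0.24 to -0.13).

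Proenzymes of MMPs are activated by furin-like convertases and by plasmin. Of 8 activators, 7 had at least 10 reads, with a median log2 ratio of 0.30, and 2 were called higher, beside 2.71% of all genes. Plaur, the urokinase receptor, gave 2425 and 8004 reads, or 1.95 on the log2 scale (1.89 to 2.02). Plg, the precursor of plasmin, had 0 control and 18 senescent reads, at least 7.04-fold higher by the floor. Its interval ran from 2.37 on the log2 scale upward, so counting error alone allows a smaller fold than this bound. Plg passed the minimum only through the senescent library. Furin, which cleaves pro-Mmp14, had 11087 and 8376 reads (-0.17, interval -0.22 to -0.13). Of 7 surface partners, with a median of -0.38, 1 was called lower, beside 5.60% of all genes, namely Itgb3, a subunit of the αvβ3 integrin, which had 2812 and 656 reads (-1.87, interval -1.995 to -1.75). Bsg, or EMMPRIN, an inducer of MMPs, had 21218 and 11723 reads (-0.63, interval -0.66 to -0.59), and Cd151, a tetraspanin, had 13896 and 10801 (-0.13, interval -0.17 to -0.10).

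Inhibitors other than TIMPs were largely not called. Of 8 listed, 6 had at least 10 reads, with a median log2 ratio of -0.40, and Mug1, a relative of α2-macroglobulin, was called higher with 0 control and 43 senescent reads, at least 16.8-fold by the floor, beside 2.71% of all genes. The interval of Mug1 ran from 3.71 on the log2 scale upward, so counting error alone allows a smaller fold than this bound. Mug1 passed the minimum only through the senescent library. Serpine2, a serine protease inhibitor, had 8289 and 3646 reads (-0.96, interval -1.01 to -0.90). Reck, a membrane-anchored MMP inhibitor, had 25 and 9 reads (-1.16, interval -2.53 to -0.10). The general inhibitor A2m had 0 reads in both libraries.

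All 12 listed AP-1, ETS and RUNX factors, which are known to bind MMP promoters, had at least 10 reads, with a median log2 ratio of 0.05, and 2 were called higher and 0 lower, beside 2.71% and 5.60% of all genes. Fosl1, the AP-1 subunit Fra-1, gave 1510 control reads against 5171 in senescent cells, or 2.005 on the log2 scale (1.92 to 2.09). Fosl1 shares 1163 exon bases with Ccdc85b on the opposite strand, which had 1764 and 1408 reads, so its count is uncertain. Fosb, which passed the minimum only through the senescent library, had 2 control and 178 senescent reads (6.09, interval 4.83 to 9.76). Their partner Jun had 1938 and 587 reads (-1.49, interval -1.63 to -1.36), and was called lower, at a log2 ratio past 1.5, with total-count and upper-quartile scaling. Junb, with the most reads of the list, had 11472 and 8997 (-0.12, interval -0.16 to -0.08), and Ets2 had 7662 and 4960 (-0.40, interval -0.45 to -0.35). The RUNX factor Runx2 had 1640 and 1594 reads (0.19, interval 0.09 to 0.29).

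Of 15 matrix substrates, 11 had at least 10 reads, with a median log2 ratio of 0.52, and 2 were called higher and 1 lower, beside 2.71% and 5.60% of all genes. Acan, or aggrecan, gave 52 and 1101 reads, or 4.61 on the log2 scale (4.23 to 5.06), and the basement membrane linker Nid1 had 2898 and 13242 (2.42, interval 2.36 to 2.48). Col1a1, a chain of the collagen I that Mmp13 and Mmp14 cleave, had 21 control reads and 1 senescent read (-3.29, interval -9.53 to -1.53). Col1a1 passed the minimum only through the control library. Col4a1, a chain of basement membrane collagen IV, had 14915 and 16657 reads (0.39, interval 0.36 to 0.42). Fn1, or fibronectin, had 29310 and 10127 reads (-1.30, interval -1.34 to -1.27). Acan and Nid1 were thus called higher and Col1a1, at few reads, lower, while Fn1 was not called and Col1a2, the other collagen I chain, had 0 reads in both libraries.

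**Figure D5:**
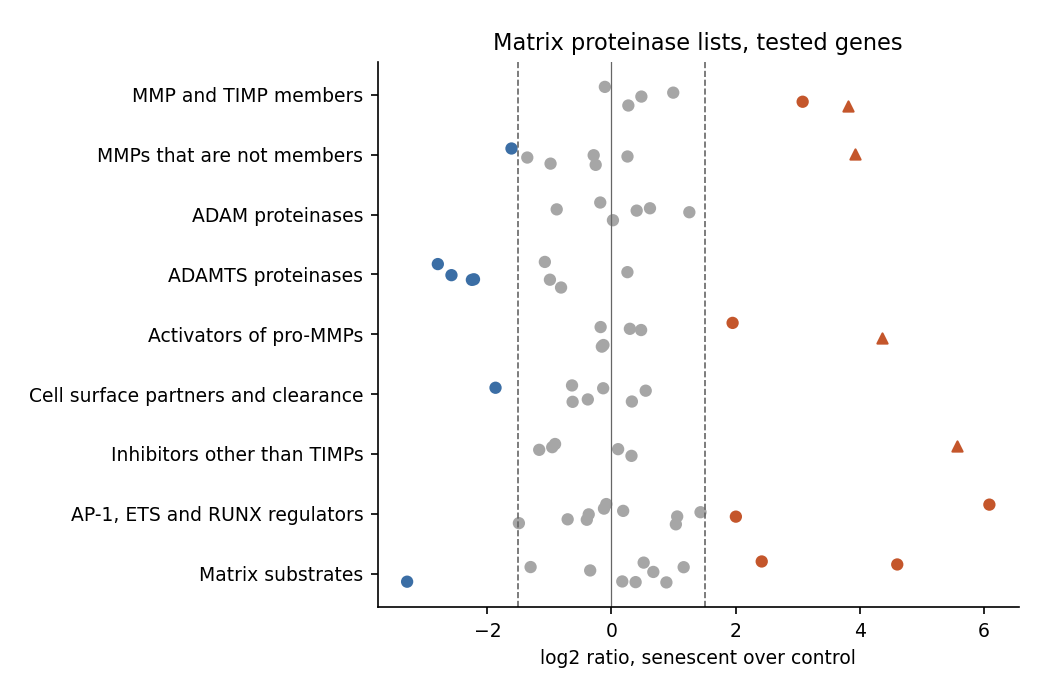
The log2 ratio of senescent over control for genes with at least 10 reads in the set and in the other lists, with genes called higher in orange, called lower in blue and others in grey, triangles for genes with 0 reads in the control and dashed lines at 1.5 in either direction. The 4 blue ADAMTS points lie between -2.22 and -2.80, and the MMP and TIMP row has 2 orange and no blue points.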

How the data were processed

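The authors deposited un-normalized counts of reads per Ensembl gene for 2 libraries, each from RNA of 3 pooled samples after poly(A) selection and random priming. The submitters' processing notes name CASAVA, STAR, DESeq2, edgeR and the build mm10, with no roles, and the annotation and use of strand are not given in the sources used here. Columns were assigned by the initials of the sample titles. Of 35275 genes, 34490 (97.8%) were paired with a symbol and position of GENCODE M21 on GRCm38, the same assembly as mm10. The members, lists, threshold and tests were chosen with earlier results of these data known.

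Libraries were scaled by TMM (edgeR 4.0.16, R 4.3.3). A log2 ratio was computed with a prior count of 1 in proportion to library size, and its 95% Clopper-Pearson interval was that of the fraction of a gene's reads found in the senescent library. Intervals of read ratios between genes were Wald intervals of 4 counts. A gene with 0 reads in 1 library was given a bound against the floor of 3 reads, one with 1 to 3 reads its ratio with the interval, and one at the floor in both no fold. TPM used the union of exons of each gene. With 1 library per condition, edgeR's quasi-likelihood test and DESeq2's test have no residual degrees of freedom. Promoter windows were RefSeq's for GRCm38.p6, and motifs other than AP-1 were added after the data were seen. Protein sequences were not used here.

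All 10 genes of the set are named. Of each of 9 other lists from general knowledge, up to 4 called genes with the largest ratio, up to 2 called genes with 0 reads in 1 library and the 2 with the most reads are named. A gene that this rule selects is not reported here. Genes named outside this rule (Mmp7, Mmp8, Mmp12, Mmp24, Timp4, Reck, A2m, Jun, Runx2, the cluster genes without reads and the genes beside or overlapping others) were chosen after their values were seen. Markers of 6 cell types were checked. Alternatives were total-count, DESeq2 1.42.0 and upper-quartile scaling, minima of 1 and 100 reads, a smaller and a larger prior count (the latter 5), thresholds of 1 and 2, intervals for an assumed coefficient of variation of 0.1 or 0.4, and other gene lengths. The method was tested on simulated data. Python 3.11.15, numpy 2.4.6, pandas 2.3.3, scipy 1.17.1 and matplotlib 3.10.9 were used.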

Additional observations from a re-analysis of the deposited data

How the results depend on the processing

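Mmp13 was called higher under every scaling, prior count, threshold and interval tried. So was Mmp10, but its call follows from passing the read minimum through the senescent library alone, so these settings say little about it. With at least 100 reads Mmp10 was not tested, which left 1 member called higher, 141 genes called higher and 395 lower, and 5 genes of the other lists higher. A threshold of 1 called 732 genes higher and 1435 lower, and 13 and 11 genes of the other lists, and a threshold of 2 called 219 higher and 460 lower. A prior count of 5 left 259 genes called higher, and an interval for a coefficient of variation of 0.4 left 243, against 390 higher and 805 lower in the main analysis. Of 30 ratios of single members under other scalings and prior counts, 28 stayed within their counting interval, and the other 2, Mmp14 at -0.21 and Timp2 at 0.37, moved with total-count scaling. Mmp10 ranged from 1.85 with a prior count of 5 to 6.72 with the smaller one, and stayed within its interval only because that has no upper end. The log2 ratio of summed MMP TPM was 0.095 with longest transcripts, against 0.27 with the union of exons, since Mmp14 then weighs more. No paired analysis was possible because each condition has 1 library, and no library could be left out.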
